A study of Rattus norvegicus with 15 samples.

Results

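The change that birth brought to the rat ductus arteriosus was set against the change in the aorta over the same interval. For each probe set the log2 ratio of newborn over fetal signal was taken in each vessel (the birth change), and the birth change of the aorta was subtracted from that of the ductus within the same chip type. A positive vessel difference means that the ductus rose more, or fell less, than the aorta. The 12 arrays used, of 15 in the series, covered 4 states. There were 3 Affymetrix rat chips, called A, B and C, with a single array of each chip for every state. The fetal states were the ductus and the aorta taken at gestational day 19 after caesarean delivery from normoxic dams, and the newborn states were the same vessels 3 h after vaginal birth. The aorta samples comprised the arch and the thoracic part, and vessels were cleaned of attached tissue in chilled medium whose gas held 2.5% oxygen (fetal vessels) or 12.5% (newborn vessels). The other 3 arrays held fetal ductus from dams given 100% oxygen during 3 h (the oxygen ductus). They did not enter the difference, and their signals are given beside it. How many animals went into each array is not stated. The newborn aorta array of chip A carries a title that counts its 3 h from coitum and a description of a newborn, and it was taken as newborn, while for chips B and C the state comes from the title.

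The ductus arteriosus is a muscular artery that carries blood from the pulmonary artery past the unventilated lungs into the aorta. At birth its muscle is known to contract when oxygen rises, through potassium channels that close and calcium that enters, while the level of dilating prostaglandin E2 falls. The aorta beside it is an elastic artery that meets the same rise in oxygen and the same hormones of delivery and remains patent, so it serves as the vessel against which a change of the ductus can be read.

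Signals are linear intensities, and a signal under the median of its chip (155.4 on A, 247.9 on B and 246.95 on C), the floor, was raised to it before logarithms were taken. Of 26202 probe sets 15002 exceeded the floor in 1 or more of the 4 states, and they represent 7900 of the 10969 named genes on the chips, each read at its brightest probe set. Where a gene's other probe sets are given, they are those above the floor on at least 1 array unless said otherwise. A gene above the floor in 1 state alone has a vessel difference whose sign that state fixes. Where a signal at the floor could only have made the difference smaller, the difference is written as "at least", and where the floor leaves its size undetermined, signals are given in place of a fold. With 1 array per state and chip there was no replicate and 0 residual degrees of freedom for this contrast, so no p-value exists, and the number of arrays limits the precision. The only repeat measurement was the same gene on another chip. Over 1927 pairs of probe sets from 1040 genes with all 4 signals above the floor, the spread of a vessel difference between chips was 0.42 (log2 SD per probe set), and 57.1% of the pairs had the same sign. This spread includes differences between probe sets. Whether it includes variation between animals or dissections is not known, since the labels do not say if the chips of a state shared RNA. The arrays had trimmed means of 500.3 to 500.9 and 49.2% to 51.1% of probe sets above the floor. The vessels carried their defining genes: Acta2 (smooth muscle actin) had signals of 16318 to 30805, and Tfap2b, a transcription factor of ductus muscle, had 330.1 and 414 in the ductus arrays and 141 and 127, both under the floor, in the aorta arrays.

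Among the 7900 genes the vessel difference was positive for 3986 and negative for 3914. It was at least 2-fold toward the ductus for 202 (2.56%) and at least 2-fold toward the aorta for 161 (2.04%). The 2 vessels otherwise moved together in part. Of 568 genes that rose at least 1.5-fold in the ductus (7.19% of those measured), 187 (32.9%) also rose in the aorta, where 572 (7.24%) rose. Of 712 that fell in the ductus (9.01%), 248 (34.8%) also fell in the aorta, where 824 (10.4%) fell. "Rose" and "fell" here mean past the stated fold, with no test. Genes that moved in opposite directions were few. The ductus rose and the aorta fell, each at least 1.5-fold, for 21 genes (0.266%), and the ductus fell and the aorta rose for 19 (0.241%). Both counts, and those that follow, are of genes whose vessels were also 2-fold apart. A change in 1 vessel alone was taken as at least 2-fold there and under 1.5-fold in the other. By these rules 28 genes (0.354%) rose in the ductus alone and 28 (0.354%) fell in the ductus alone, while 53 (0.671%) rose and 63 (0.797%) fell in the aorta alone. The remaining 151 genes (1.91%) were 2-fold apart without meeting any of these rules. Members of the gene lists made up 47.4% of the genes that fell in the ductus and rose in the aorta and 33.3% of the reverse class. They made up 39.6% of those that rose and 17.5% of those that fell in the aorta alone. In the ductus alone the shares were 21.4% of those that rose and 35.7% of those that fell, against 8.8% of all genes measured. The lists were chosen with earlier results of these data known, so these shares are no independent support.

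**Figure D1:**
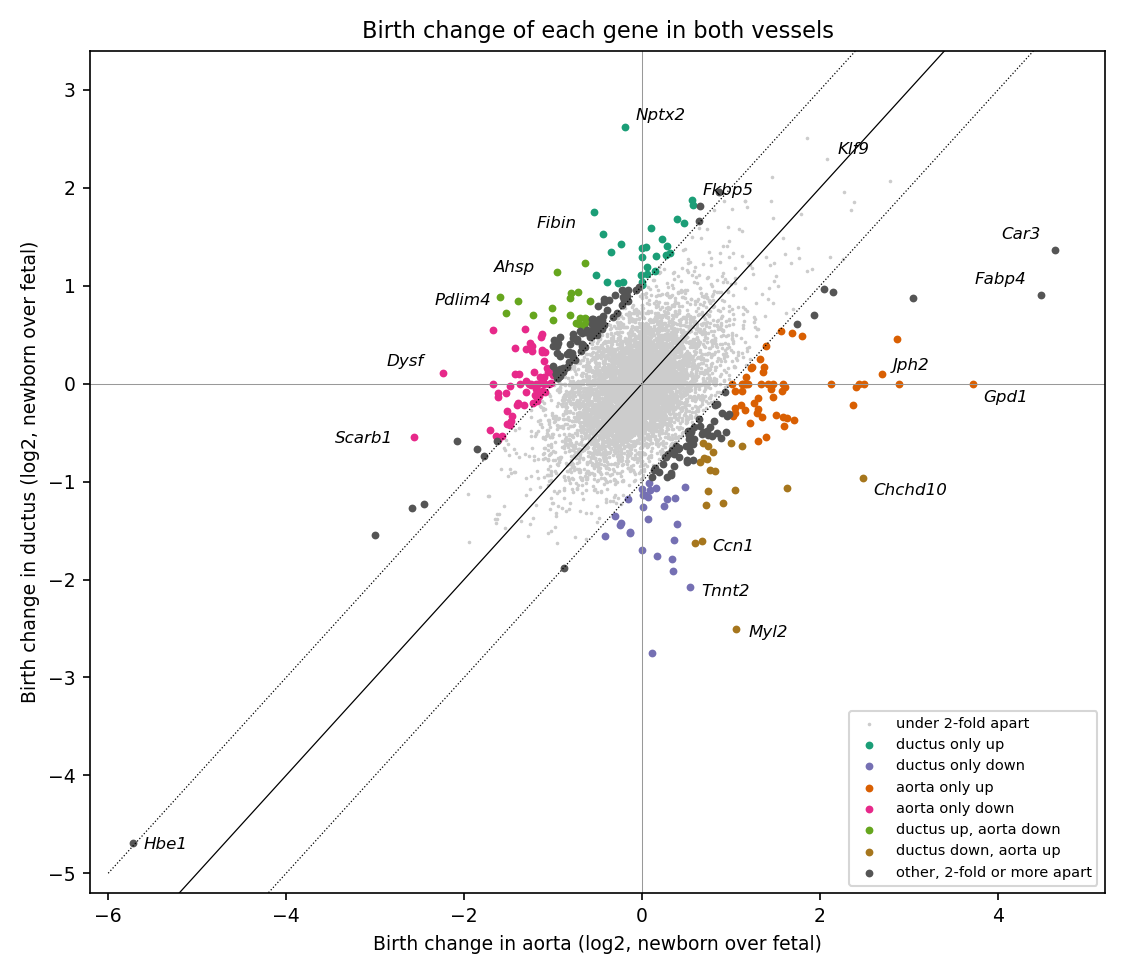
Birth change (log2, newborn over fetal signal) of 7900 genes in the aorta (x axis) and the ductus (y axis), 1 array per state, with signals under the floor set to it, so points at 0 on an axis can be genes under the floor in that vessel. Dotted lines mark a vessel difference of 2-fold, and coloured points are the genes beyond them. Hbe1 lies at the far lower left, low in both vessels. Muscle genes such as Myl2 and Tnnt2 lie toward the bottom (ductus lower), fat genes such as Gpd1 and Fabp4 at the right (aorta higher), and Nptx2 and Fibin at the top.

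A class rests on 1 probe set per gene, and few classes held across probe sets. Of the 212 genes in the 6 classes, 87 had at least 2 probe sets above the floor, and for 65 of these all probe sets had a vessel difference of the same sign. Among all genes with at least 2 such probe sets, 50.1% had the same sign at all of them. For 19 of the 87 all probe sets were at least 2-fold apart the same way, and for 14 all fell in the same class. The 14, picked out after their values were seen, were Myl4 and Tnni3 (ductus down, aorta up), Igfbp4 (ductus up, aorta down), Myh7 and Myl7 (ductus alone down), Krt4 (ductus alone up), Dgat2, Gpd1, Pck1, Pparg and Ucp1 (aorta alone up) and Alb, Ina and Reln (aorta alone down). Both probe sets of Gpd1, Pck1, Pparg, Ucp1, Alb and Ina exceeded the floor in 1 aorta state only. For these genes the floor fixed the sign and left no ductus change to be seen, so the agreement is no support. The probe sets of Tnni3, Igfbp4, Myh7, Myl7, Dgat2, Ucp1, Alb and Ina lay on a single chip, which is no repeat measurement.

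**Figure D2:**
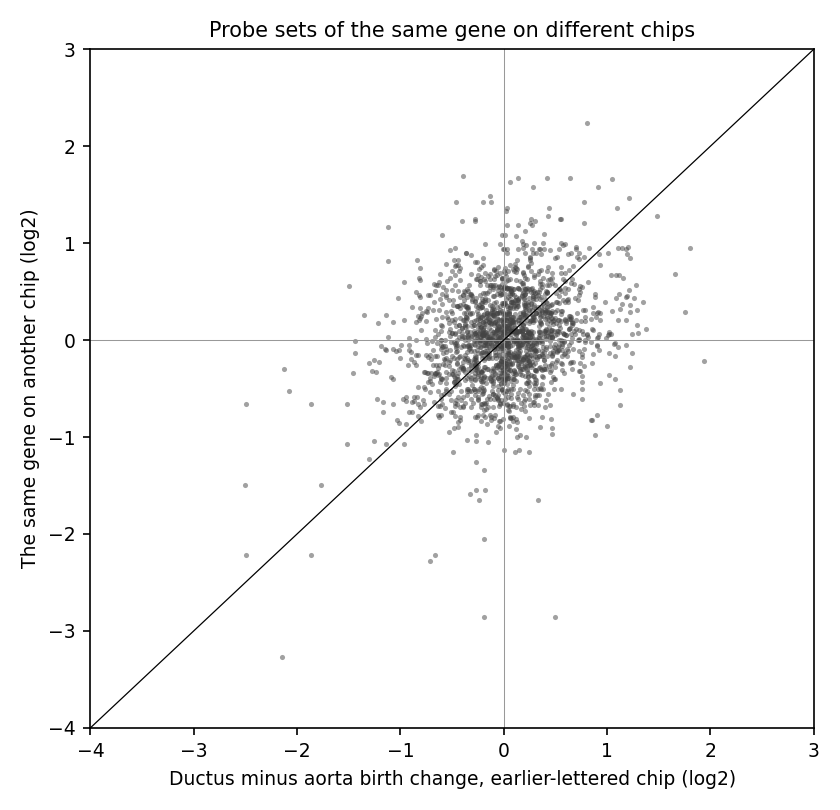
Vessel difference (log2) of probe sets of the same gene on 2 chips, 1927 pairs, with all 4 signals above the floor. The cloud is wide around the diagonal (r = 0.27 across pairs, which are not independent), and the pair farthest from the origin, that of Car3, lies at the lower left, where both chips show a lower ductus.

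Heart muscle genes were lower in the newborn than the fetal ductus and mostly level or higher in the newborn aorta. Of 22 such genes on the chips 21 were measured, 15 of them with all 4 signals above the floor. In the ductus 13 fell at least 1.5-fold and 0 rose, and in the aorta 9 rose and 1 fell. All 21 had a negative vessel difference, 18 of them at least 1.5-fold and 0 in the other direction, against 8.8% of all genes toward the aorta and 10.3% toward the ductus. Their median difference was -1.59 (log2; ductus -0.69, aorta 0.54), beside 0.00 over all genes. Taken by chip, the median was -1.56 for A, -0.71 for B and -1.49 for C.

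Myl2, the regulatory light chain of ventricular myosin, read 1406 in fetal and 248 in newborn ductus, and 203 in fetal and 423 in newborn aorta. The vessels thus exchanged their order, the ductus by a fall of 5.68-fold and the aorta by a rise of 2.09-fold, for a difference of -3.57. Its other probe sets, both on chip A, gave -1.53 and, with signals under the floor on 3 arrays, -2.32. Myl4, the atrial and embryonic essential light chain, had 4031 and 2491 in the fetal and newborn ductus and 2399.9 and 4168 in the aorta, a difference of -1.49, and its 2 probe sets on chip A gave -1.77 and -2.51. Tnni3, cardiac troponin I, which holds the thin filament off at rest, had 792 and 508 in the ductus and 466 and 1017 in the aorta (-1.77). All 3 of these genes lay higher in the ductus before birth and higher in the aorta after it.

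Myh6, the alpha myosin heavy chain of the heart, is read by a probe set that the maker marks as shared within a gene family, so its signal cannot be told apart from that of related myosins. It had 3349 and 1085 in the ductus and 1164 and 1754 in the aorta (-2.22), and its other 4 probe sets gave -0.66 to -2.50. Smpx, a small protein of striated muscle, is read by a probe set with the same family mark. It fell from 548 to 263 in the ductus and rose from 86.7, under the floor, to 765 in the aorta, a difference of at least 6.44-fold. Its 3 other probe sets, on all chips, gave -0.66 to -1.52, so the bound rests on 1 fetal aorta signal.

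In the next group the ductus fell and the aorta stayed within 1.5-fold. Tnnt2, cardiac troponin T, read 2343 in fetal and 554 in newborn ductus, and 797 in fetal and 1161 in newborn aorta, a fall of 4.23-fold in the ductus against a rise of 1.46-fold in the aorta. Myl7, the atrial regulatory light chain, went from 4127 to 1099 in the ductus and from 2132 to 2709 in the aorta (-2.25). Actc1, cardiac actin, was the brightest of the group. It had 9619.9 and 3190.4 in the ductus and 4285 and 5491 in the aorta (-1.95). Myh7, the slow beta myosin heavy chain, read by a probe set with the same family mark, fell 3.46-fold in the ductus (1561 to 451) and had 525 and 663 in the aorta. Ttn, the giant spring of the sarcomere, fell at least 2.88-fold in the ductus, where the newborn signal of 242 was just under the floor, and had 534 and 485 in the aorta.

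Myl3, the ventricular essential light chain, was above the floor only in the fetal ductus, at 504, with 23.8 in the newborn ductus and 104 and 13.8 in the aorta arrays. The ductus fell at least 3.24-fold and no fold can be given for the aorta. Its promoter is shown because it holds a CArG box, the element bound by serum response factor in muscle genes, given here in capitals within the 150 bases before the start site (RefSeq, GRCr8, chr8:119616944-119617093, plus strand):
Myl3: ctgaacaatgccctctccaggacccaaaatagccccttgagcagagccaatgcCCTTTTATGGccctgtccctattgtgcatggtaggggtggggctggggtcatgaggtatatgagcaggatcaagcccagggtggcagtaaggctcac
The box lies at -97 to -88. A CArG box (CC, then 6 bases each A or T, then GG) occurred in 2 of 17 promoters of the heart list that matched (11.8%), 2 of 19 of contractile smooth muscle (10.5%) and 1.64% of all 27457 promoter windows of 300 bases (250 before and 50 after the start), searched on both strands. Among the matched promoters of all genes measured it occurred in 1.43%.

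The summed signal of the same 21 heart genes restates these values and is no separate reading. It was 44885 in fetal and 23244 in newborn ductus, and 21516 in the fetal and 30722 in the newborn aorta, with 43211 in the oxygen ductus. The fetal ductus was thus about as high as the oxygen ductus and stood above the other 3 states. Nppa, the atrial natriuretic peptide precursor, had 630.2 and 435 in the ductus and 9.70 and 15.5, both under the floor, in the aorta. The skeletal muscle list had a median vessel difference of 0.21 (12 measured, 2 higher past 1.5-fold and 0 lower). In tissue RNA of this kind fewer cells of a type and less RNA per cell cannot be told apart, and whether heart tissue was carried along in some of the dissections was not tested.

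**Figure D3:**
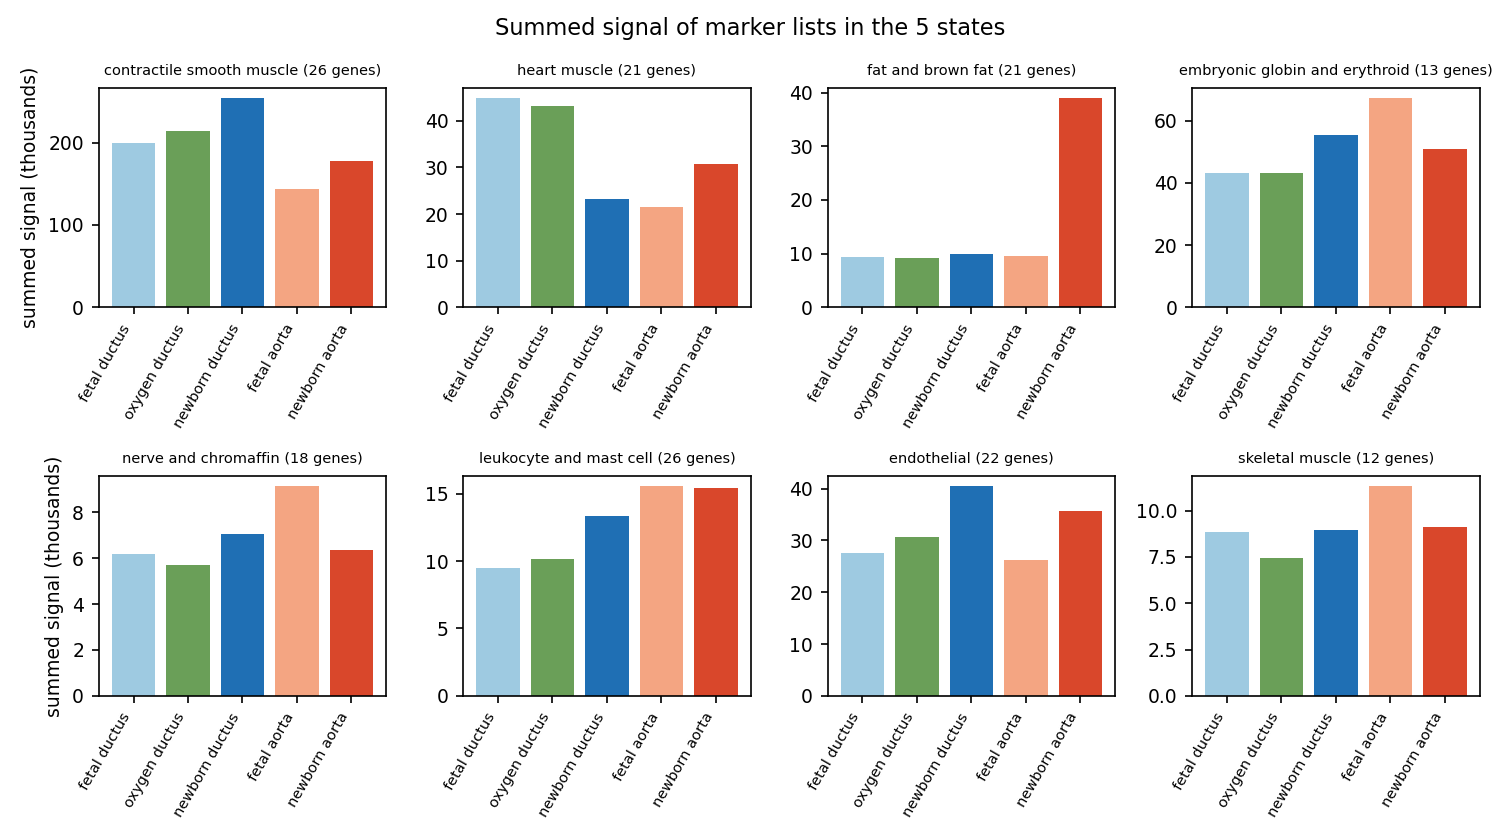
Summed signal (linear axis from 0) of 8 marker lists in the 5 states, 1 array per state and chip, each gene at its brightest probe set. The heart muscle sum is highest in the fetal and oxygen ductus and lowest in the fetal aorta, the fat sum stands apart in the newborn aorta at 38993, and the contractile smooth muscle sum rises in both vessels.

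Other genes that fell in the ductus and rose in the aorta belonged to other groups. Chchd10, a protein of the mitochondrial intermembrane space, read 611 in fetal and 312 in newborn ductus, and 404 in fetal and 2261 in newborn aorta, so that the newborn aorta stood alone, for a difference of -3.45, though a dimmer probe set on the same chip gave -0.39. Msln, mesothelin, a surface protein of the serosal lining, went from 669 to 316 in the ductus and from 674 to 1392 in the aorta (-2.13). Psat1, an enzyme of serine synthesis, went from 589 to 253 in the ductus and from 510.2 to 956 in the aorta (-2.12, with -1.40 at its other probe set). Krt18, a keratin of simple epithelia, had 1435 and 846 in the ductus and 739 and 1198 in the aorta (-1.46, with -0.76 at its other probe set).

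Ccn1, a matricellular growth regulator induced by stretch and serum, was a case where the chips disagreed on the class. On chip C it had 3789 in fetal and 1248 in newborn ductus, and 1453 in fetal and 2321 in newborn aorta (-2.28). On chip A the ductus went from 933 to 1339 and the aorta from 528 to 1242, a difference of -0.72. Both probe sets show the aorta rising more, and only the first shows a fall in the ductus. Its relative Ccn2 had a difference of -0.81, with 11439.6 and 12774 in the ductus and 8720.1 and 17052 in the aorta.

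Of the cartilage collagens, Col9a1 went from 1011 to 375 in the ductus and from 356 to 466 in the aorta (-1.82), and Col2a1 was above the floor in the fetal ductus (397) and the fetal aorta (192) and under it in the newborn ductus (72.5) and aorta (43.0). Col11a1 differed the other way on chip B, with 1344 and 981 in the ductus and 2692 and 1032 in the aorta (0.93), and had -0.44 on chip C. The list of epithelium, airway and cartilage genes they belong to had a median of -0.38 over 13 genes, 6 at least 1.5-fold lower and 4 higher, so its members did not move as 1 group, and the sign turned with a lower floor (0.06). Pnoc, the precursor of the neuropeptide nociceptin, chosen after its values were seen, fell in the ductus from 2546 to 379, with 1247 and 1344 in the aorta (-2.86), but its 2 probe sets on chip A gave -0.19 and 0.50. Kcnj11, a pore subunit of ATP-sensitive potassium channels, fell from 342 to 54.6, under the floor, in the ductus and had 208 and 213 in the aorta.

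Fat genes rose more in the aorta than in the ductus, and 9 of the 53 genes that rose in the aorta alone were fat genes (17%, against 0.266% of all genes measured). The fat list, too, was chosen with earlier results of these data known. Of 24 fat and brown fat genes on the chips 21 were measured, 14 rose at least 1.5-fold in the aorta and 5 in the ductus, and 15 had a vessel difference at least 1.5-fold toward the aorta against 2 toward the ductus. The median was -1.34 (ductus 0.00, aorta 1.59), and by chip -1.03 (A), -1.75 (B) and -2.12 (C). Of the 21, 10 had all 4 signals above the floor. For members above it in the newborn aorta alone the floor fixed a negative sign. Car3, the carbonic anhydrase of fat and muscle, read 367 in fetal and 948 in newborn ductus, and 592 in fetal and 14774 in newborn aorta. On the log2 scale the aorta rose by 4.64 and the ductus by 1.37, and on chip A, at lower signals, the difference was -2.14 in place of -3.27. Cidea, a lipid droplet protein of brown fat, went from 206 to 378 in the ductus and from 162 to 1339 in the aorta (-2.17). Fabp4, the fatty acid binding protein of adipocytes, was under the floor in both fetal vessels (111 and 123) and reached 292 in the newborn ductus and 3489 in the newborn aorta.

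Several fat genes were above the floor in the newborn aorta and in no other of the 4 states. Gpd1, which makes glycerol phosphate for triglyceride, had 3258 there and 34.5, 198 and 36.2 in the fetal ductus, newborn ductus and fetal aorta, a rise of at least 13.2-fold in the aorta. Pck1, the enzyme of glyceroneogenesis, reached 1829 in the newborn aorta with 169, 156 and 136 elsewhere. Pparg, the master regulator of adipocytes, reached 1343, and Adipoq, the hormone adiponectin, 1075 with 12.7 to 16.3 in the other 3 states. No fold of the ductus can be given for these genes.

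Ucp1, the uncoupling protein that makes heat in brown fat, reached 876 in the newborn aorta, with 26.8 and 83.8 in the fetal and newborn ductus and 81.8 in the fetal aorta, a rise of at least 5.64-fold in the aorta. Its proximal promoter is shown with the TATAAA element in capitals (RefSeq, GRCr8, chr19:41721422-41721571, minus strand, the 150 bases before the start):
Ucp1: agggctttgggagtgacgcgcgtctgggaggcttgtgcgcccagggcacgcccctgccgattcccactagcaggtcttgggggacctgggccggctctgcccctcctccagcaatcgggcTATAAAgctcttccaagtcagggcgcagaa
The element lies at -30 to -25. TATAAA, read on either strand, occurred in 3 of 12 matched promoters of the fat list (25%) and in 14.3% of all promoter windows. Over the matched promoters of all genes measured the share was 7.48%.

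The fat marker sum adds up the signals of the same list members and is no separate reading. It was 9324 in the fetal ductus, 9851 in the newborn ductus, 9473 in the fetal aorta, 9200 in the oxygen ductus and 38993 in the newborn aorta. The defining adipocyte genes Adipoq, Ucp1, Pparg and Cfd were under the floor on the other 4 arrays of their chips, so their signal came from the newborn aorta arrays alone. Whether fat adhering to the dissected newborn aorta is its source was not tested. Of the 161 genes at least 2-fold apart toward the aorta, 32 (19.9%) were ones in which the newborn aorta alone stood high, against 16 of the 202 toward the ductus for the fetal aorta, the next most frequent state.

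Mitochondrial genes shifted with fat and heart genes. Of 46 measured genes of the respiratory chain and ATP synthase, 42 had a negative vessel difference and 18 were at least 1.5-fold lower with 0 higher, for a median of -0.52 (ductus -0.14, aorta 0.27). Cyc1, cytochrome c1 of complex III, had 1726 in fetal and 1406 in newborn ductus, and 1441 in fetal and 2980.4 in newborn aorta (-1.34). Ndufb3 and Ndufa8, subunits of complex I, had differences of -1.30 and -1.19, the first with 1947 and 1639 in the ductus and 1095 and 2266 in the aorta. Ndufv1, another complex I subunit, had -1.35 at its brightest probe set, and its others gave -0.09 and 0.26, so it is a gene whose call rests on 1 probe set. Fatty acid oxidation genes had a median of -0.44 over 23 genes, 7 at least 1.5-fold lower and 0 higher. By chip it was -0.45 (A), -0.14 (B) and -0.05 (C), and for the respiratory chain -0.44 (A), -0.37 (B) and -0.20 (C). Among them Etfb, which takes electrons from the acyl-CoA dehydrogenases, had 627 and 498 in the ductus and 699 and 1420.2 in the aorta (-1.36), and Acadvl, the very long chain dehydrogenase, -1.01. Both tissues named above, heart and brown fat, are rich in these enzymes, and their part in the shift was not tested.

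Among further genes that rose in the aorta alone, Mgst1, a membrane glutathione transferase, had 489 in fetal and 420 in newborn ductus, and 468 in fetal and 2421 in newborn aorta, a rise of 5.17-fold in the aorta. Acsl1, which activates long chain fatty acids, rose at least 5.27-fold in the aorta at its brightest probe set (152, under the floor, to 819.5). There it had 228 and 222 in the ductus, a difference of at least 5.41-fold. Its other probe sets on chip A gave smaller differences, -2.01 with all 4 signals above the floor and -0.16 with 1 above it. Dgat2, the last step of triglyceride synthesis, went from 588 to 1769.8 in the aorta and from 471 to 349 in the ductus (-2.02). Hspa9, the mitochondrial Hsp70, had 163 and 502 in the aorta and 240.3 and 188 in the ductus (-1.98, with -0.49 at its other probe set), and Rasa4, a Ras GTPase activator, -2.08 on chip B and -0.53 on chip C. The chip B probe set of Rasa4 carries the gene family mark described for Myh6.

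For Jph2 and Ceacam12 the fetal aorta was the state that stood apart. Jph2, junctophilin 2, which ties the plasma membrane to the calcium store of striated and smooth muscle, had 112 there, under the floor, and 1007, 845 and 903 in the newborn aorta, fetal ductus and newborn ductus, a difference of at least 6.07-fold. Ceacam12 had 184 in the fetal aorta and 1158 to 1808 in the other 3 states, a difference of at least 5.30-fold. Jph2 has 1 probe set, and the second probe set of Ceacam12 was under the floor in all 4 states, so the low fetal aorta values have no second reading. Nos2, inducible nitric oxide synthase, singled out after its values were seen, had the same pattern at 1 probe set, with 80.2 in the fetal aorta and 432, 567 and 516 in the newborn aorta and the fetal and newborn ductus. Its other 2 probe sets had signals near or under the floor in all 4 states and no such difference.

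In the opposite class the ductus rose and the aorta fell. Igfbp4, a binding protein that holds insulin-like growth factors, read 1715 in fetal and 3289 in newborn ductus, and 2657 in fetal and 1612 in newborn aorta. The order of the vessels turned over, with a rise of 1.92-fold in the ductus and a fall of 1.65-fold in the aorta, and its other probe set on chip C gave a larger difference (2.48 against 1.66). Pdlim4, which links actin stress fibres to alpha-actinin, had 509 and 914 in the ductus and 875 and 333 in the aorta (2.24), the largest measured difference toward the ductus among the genes the naming rule admits, and on chip A it had 0.81. Its oxygen ductus signal was 663, and that of Igfbp4 1586.

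Adipor2, an adiponectin receptor, had 454 and 696 in the ductus and 1365 and 816 in the aorta (1.36), while its 2 probe sets on chip A gave 0.03 and 0.43. Slc28a2, a nucleoside carrier, had 794 and 1426 in the ductus and 1351 and 901 in the aorta (1.43). Hsd11b1, the enzyme that makes active glucocorticoid from its inert form, rose from under the floor (141) to 253 in the ductus and fell from 539 to 231 in the aorta, a difference of at least 3.80-fold. It was thus far apart between the fetal vessels and close between the newborn ones. Vegfd, a lymphatic growth factor chosen after its values were seen, had a difference of 1.66 on chip C (284 and 446 in the ductus, 579 and 289 in the aorta) and of 1.05 on chip A, where the ductus went from 285 to 238.

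Ahsp was the only gene of the red cell list in this class. Ahsp, the chaperone of free alpha-globin, had 383 in fetal and 845 in newborn ductus, and 1499 in fetal and 772 in newborn aorta, so that the vessels met after birth (2.10). Of 13 measured genes of embryonic globin and red cell formation, 12 had a positive vessel difference, 8 at least 1.5-fold, with 1 at least 1.5-fold lower, and the median was 0.91 (ductus 0.16, aorta -0.43). Alas2, the first enzyme of haem synthesis in red cells, rose in both vessels, from 2369 to 8346 in the ductus and from 5463 to 8588 in the aorta. The embryonic globin Hbe1 fell in both, from 6741 to 261 and from 17355 to 328. The newborn signals of Ahsp, Alas2 and Hbe1 lay within 1.5-fold of each other between the vessels and the fetal ones were all higher in the aorta. The list sum was 43214 and 55509 in the ductus and 67303 and 50799 in the aorta. The transferrin receptor Tfrc ran against the list on chip C (at least 3.07-fold toward the aorta) and had -0.08 on chip A, and how much blood each sample held was not tested.

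Among genes that rose in the ductus alone, Fibin, a secreted protein of developing limb and fin, had 718 in fetal and 2067 in newborn ductus, and 1651 in fetal and 1217 in newborn aorta, a rise of 2.88-fold in the ductus (1.97). Krt4, a keratin of stratified epithelium, had 342 and 871 in the ductus and 554 and 436 in the aorta (1.69), and on chip A the ductus went from 130, under the floor, to 838 while the aorta had 359 and 329. Clic2, a chloride intracellular channel protein, had 1796 and 3879.5 in the ductus and 1788 and 1244 in the aorta (1.63). Its fetal signals were alike in both vessels, and its newborn signals were apart. Adgrg6, an adhesion receptor of Schwann cells and developing heart, went from 266 to 715 in the ductus and from 588 to 498 in the aorta (1.66).

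Others rose from under the floor. Nptx2, a pentraxin secreted at synapses, had 91.7 in the fetal ductus and 958 in the newborn ductus, with 593 and 518 in the aorta and 407 in the oxygen ductus, a difference of at least 7.06-fold. Aaas, a nuclear pore protein, had 184, 838, 912 and 625 in fetal ductus, newborn ductus, fetal aorta and newborn aorta, and 1098 in the oxygen ductus, so that the fetal ductus array alone was low. Kcnd3, a pore subunit of transient outward potassium current, rose at least 3.20-fold in the ductus (106 to 497) and had 269 and 354 in the aorta. Aaas has 1 probe set. Nptx2 has a second probe set and Kcnd3 has 2 more, all under the floor in every state, and they show no rise in the newborn ductus.

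Genes that fell in the aorta alone were the most numerous of the 6 classes. Nrk, a kinase of embryonic tissue, had 289.9 in fetal and 423 in newborn ductus, and 572 in fetal and 179.6 in newborn aorta, a fall of 3.18-fold in the aorta (2.22). Reln, reelin, a secreted guide of neuronal migration that lymphatic vessels also make, was the only one of the 14 genes above to show its class on all 3 chips and was chosen for that after its values were seen. On chips A, B and C the aorta went from 574 to 283, from 628 to 246 and from 785 to 360.1, while the ductus went from 461 to 525, from 471 to 434 and from 536 to 678, for differences of 1.21, 1.22 and 1.46. Scarb1, the receptor for high density lipoprotein, had 925 and 634 in the ductus and 992 and 169 in the aorta (2.01), but its other probe sets on chip A gave 0.37 and 0.59. Rab14, a small GTPase of endosomes, had 1.67 at its brightest probe set and 0.14 to 1.05 at the other 4. Dysf, dysferlin, which reseals muscle membranes, was alike in 3 states (1017, 1099 and 1167) and 206, under the floor, in the newborn aorta.

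Nerve and chromaffin genes were lower in the newborn than the fetal aorta. All 18 measured members had a positive vessel difference, 8 of them at least 1.5-fold, with a median of 0.48 (ductus 0.00, aorta -0.55), and 9 fell at least 1.5-fold in the aorta against 3 in the ductus. Only 7 of the 18 had all 4 signals above the floor. For members above it in the fetal aorta alone the floor fixed a positive sign. Th, tyrosine hydroxylase, the rate-limiting enzyme of catecholamine synthesis, had 253 in fetal and 237 in newborn ductus, and 638 in fetal and 221 in newborn aorta, so that the fetal aorta alone was high (1.44). Gap43, a protein of growing axons, had 371 and 276 in the ductus and 658 and 235 in the aorta (1.06). Stmn2, a tubulin regulator of growth cones, had 381 and 263 in the ductus and fell from 737 to under the floor (191) in the aorta. Ina, alpha-internexin, a neuronal intermediate filament, was above the floor in the fetal aorta alone (375, against 144, 107 and 65.0), and so were the chromaffin enzyme Dbh (245, with 14.9 to 40.8 elsewhere) and its regulator Phox2a (218, with 50.5 and 15.3 in the fetal and newborn ductus).

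The Th promoter is shown for the cyclic AMP response element that the sequence holds, TGACGTCA, in capitals (RefSeq, GRCr8, chr1:207508219-207508368, minus strand, the 150 bases before the start):
Th: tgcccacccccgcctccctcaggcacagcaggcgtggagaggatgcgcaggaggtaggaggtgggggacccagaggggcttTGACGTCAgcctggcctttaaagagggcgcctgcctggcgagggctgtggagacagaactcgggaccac
The element lies at -69 to -62 and reads the same on both strands. It occurred in 1 of 10 matched promoters of the nerve list, that of Th, in 1.91% of all promoter windows and in 3.12% of the matched promoters of all genes measured. The summed signal of the same nerve list members, no separate reading, was 9121 in the fetal aorta and 5700 to 7033 in the other 4 states. Whether sympathetic ganglia or chromaffin tissue lay beside the sampled fetal aorta was not tested.

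The list of fetal liver plasma proteins followed the same course. It also holds Igf2, which is in the growth factor list too, and H19, so it is not of plasma proteins alone. All 10 measured genes of the list had a positive vessel difference, 4 at least 1.5-fold, and the median was 0.41 (ductus 0.00, aorta -0.58). Of the 10, 3 had all 4 signals above the floor, and for Alb the floor fixed the sign. Afp, alpha-fetoprotein, fell in both vessels, from 375 to 156 in the ductus and from 935 to under the floor (122) in the aorta. Alb, albumin, was above the floor in the fetal aorta alone, at 497. Leukocyte genes had a median of 0.43 (26 measured, past 1.5-fold 8 higher and 1 lower), and 0.23 with the higher floor. They include C1qa, a macrophage complement subunit, at 743 and 786 in the ductus and 1593 and 834 in the aorta (1.02), again a fetal aorta that stood above the other 3 states. Antigen presentation and interferon genes had a median of 0.37 over 20, but 0.089 with the higher floor, and by chip 0.37 (A), 0.02 (B) and 0.04 (C). RT1-Da, a class II chain, was at least 2.84-fold apart at its brightest probe set, and the other gave 0.68.

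**Figure D4:**
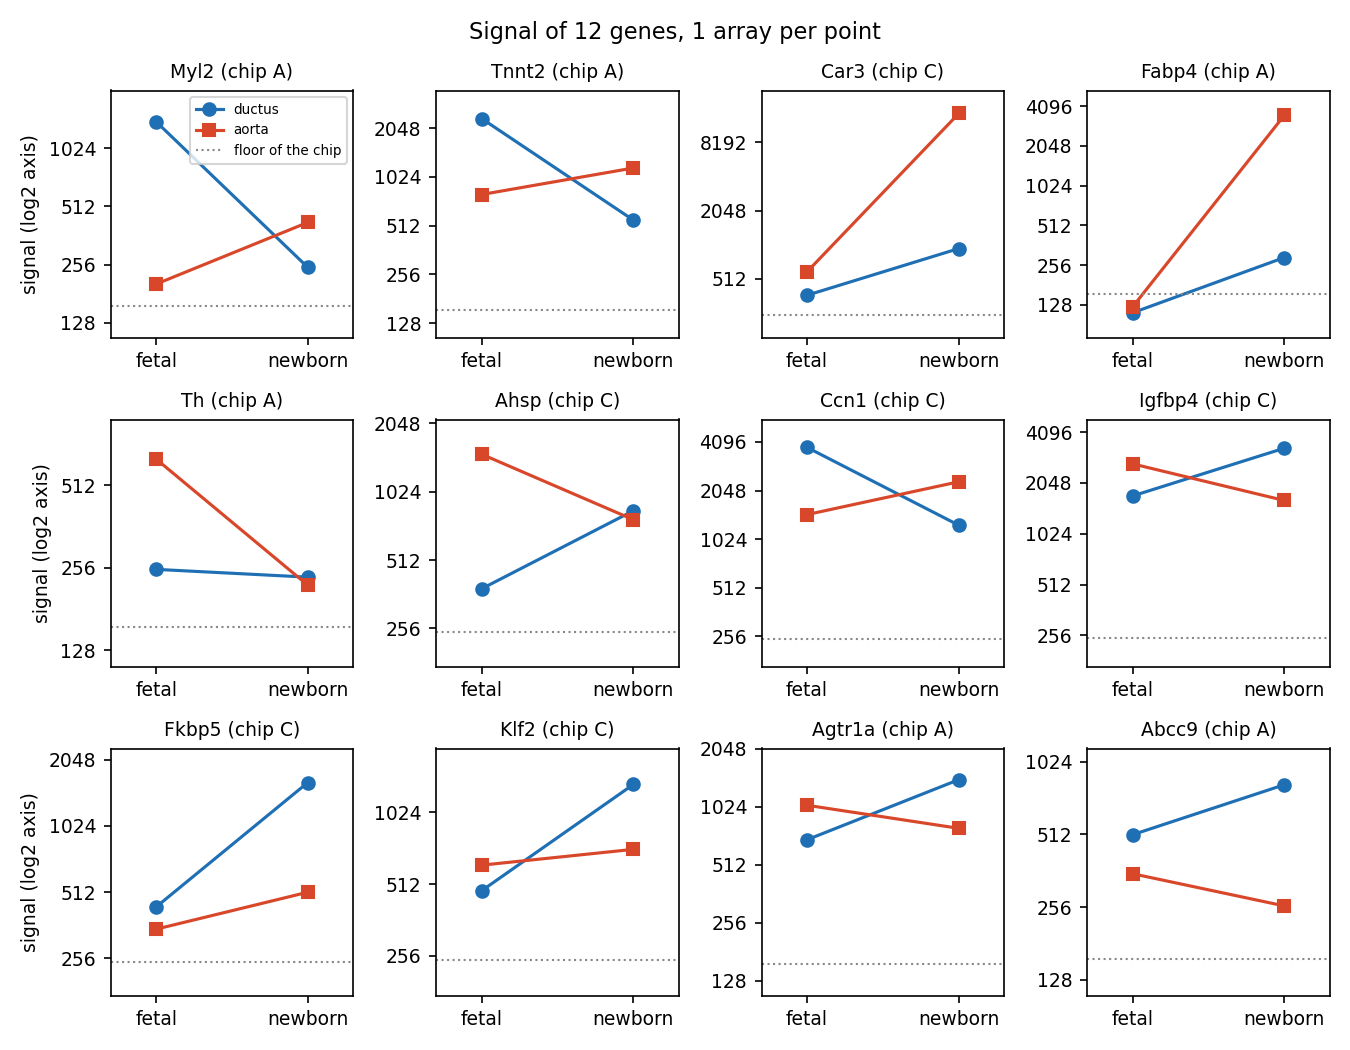
Signal (log2 axis) of 12 genes in fetal and newborn ductus (blue circles) and aorta (red squares), 1 array per point, with the floor of the chip dotted. Lines of Myl2, Tnnt2 and Ccn1 cross with the ductus falling, those of Igfbp4, Klf2 and Agtr1a cross with the ductus rising, Fabp4 and Car3 rise steeply in the aorta, and Th and Ahsp start apart and meet.

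Among genes of vascular tone, both angiotensin receptors differed toward the ductus. Agtr1a, the type 1 receptor that contracts smooth muscle, read 692 in fetal and 1418 in newborn ductus, and 1044 in fetal and 793 in newborn aorta, a rise of 2.05-fold in the ductus beside a slightly lower newborn aorta (1.32-fold), and 823 in the oxygen ductus. All 4 of its probe sets, on chip A, gave 1.22 to 1.62, and signal from its close paralog Agtr1b may be included in them. Agtr2, the type 2 receptor of fetal tissue, had 594 and 827 in the ductus and 2428 and 1278 in the aorta (1.40, with 1.03 at its other probe set), so the aorta kept the higher signal while the gap narrowed. Edn1, the precursor of endothelin-1, rose in both vessels by like amounts (413 to 672 and 258 to 398, a difference of 0.08). Vasoactive signalling genes had a median difference of 0.09 (32 measured), and past 1.5-fold 7 were higher and 3 lower.

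Of the potassium channel genes of ductus muscle, Abcc9, Kcnj8 and Kcna5 differed toward the ductus. Abcc9, the regulatory subunit of the vascular ATP-sensitive channel, had 510.2 and 821 in the ductus and 352 and 259 in the aorta (1.13), but at its other probe set both vessels rose and the difference was 0.30. Kcnj8, its pore subunit, had 507 and 845 in the ductus and 394 and 355 in the aorta (0.89). Kcna5, a voltage-gated channel implicated in oxygen sensing of the ductus, held at 299 and 335 in the ductus and went from 311 to 79.0, under the floor, in the aorta, a difference of at least 2.24-fold that comes from the newborn aorta. As a whole the list of 26 potassium and calcium channel genes had a median of 0.17, 5 at least 1.5-fold higher and 5 lower. The lower ones included Atp2a2, the calcium pump of the sarcoplasmic reticulum that heart muscle also uses, with 3094 and 2316 in the ductus and 1506 and 2232 in the aorta (-0.99).

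Prostanoid genes gave no common direction, the median being 0.17 (16 measured, past 1.5-fold 3 higher and 2 lower). Ptgs1, constitutive cyclooxygenase, rose from 368 to 716 in the ductus and had 459 and 654 in the aorta (0.45). Slco2a1, the prostaglandin uptake carrier, had a difference of -0.51 at its brightest probe set and 0.26 at the other. Ptger4, the receptor through which prostaglandin E2 relaxes the ductus, and Ptgs2, inducible cyclooxygenase, each exceeded the floor on 1 array and only slightly (166 and 162), so no vessel difference can be read. Hpgd, which degrades prostaglandins, was under the floor in all 4 states, and the endothelin receptor Ednrb gave no usable value here. Among the developmental genes, Jag1, a Notch ligand of ductus muscle, had 1025 and 546 in the ductus and 667 and 550.2 in the aorta (-0.63), and Epas1, hypoxia-inducible factor 2 alpha, 1557 and 1000.3 in the ductus and 1474 and 1670 in the aorta (-0.82, with 0.46 at its other probe set).

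Glucocorticoid-responsive genes were mostly higher after birth, with a larger median in the ductus. Of 20 measured, 15 rose at least 1.5-fold in the ductus and 10 in the aorta, and the median vessel difference was 0.42 (ductus 0.86, aorta 0.58), with 6 at least 1.5-fold higher and 0 lower. With the probe sets of each gene averaged that median was 0.25. By chip, over all probe sets of the list, it was 0.28 (A), -0.06 (B) and 0.45 (C). Probe sets other than the brightest of a gene went as low as -1.41 on chip B and -1.04 on chip C. Fkbp5, an inhibitor of the glucocorticoid receptor that the receptor itself induces, had 438 in fetal and 1612 in newborn ductus, and 347 in fetal and 511 in newborn aorta (1.32), and 371 in the oxygen ductus. Ddit4, an inhibitor of the mTOR pathway, rose from 503 to 971 in the ductus and had 452 and 394 in the aorta (1.15). By contrast Klf9, a direct target of the receptor, rose alike, from 687 to 3379 and from 593 to 2502 (0.22). Pdk4, which switches muscle from glucose to fat, reached 769 in the newborn ductus and 343 in the newborn aorta from under the floor in both (169 and 161).

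Immediate early genes had medians of 0.63 in the ductus and 0.41 in the aorta, with a median difference of 0.07 (26 measured), and past 1.5-fold 4 were higher and 4 lower. The members at either end were chosen after their values were seen. Klf2, a transcription factor that flow induces in endothelium, went from 479.9 to 1336 in the ductus and from 614 to 715 in the aorta (1.26). Zfp36, which destabilises cytokine transcripts, had 1.06, and Ccn1 lay at the other end as described. Clock genes, of which 5 were measured, had a median of 0.46, which fell to 0.17 with the lower floor, with 2 arrays above the floor or with probe sets averaged. They include Cry2, a repressor of the clock, at 1294 and 1527 in the ductus and 1214 and 959.5 in the aorta (0.58).

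Several large groups had near-equal medians in both vessels. Contractile smooth muscle genes had medians of 0.47 in the ductus and 0.42 in the aorta and a median difference of -0.05 (26 measured), with 1 gene past 1.5-fold each way. Myh11, smooth muscle myosin, had 5415 and 8143 in the ductus and 3379 and 4080.3 in the aorta (0.32, with -0.67 and -0.35 at its other probe sets), and Acta2 had 0.09, with -0.38 to 0.23 at its others. Cell cycle genes were lower after birth in both (-0.60 and -0.51, 41 genes), and so were genes of cholesterol synthesis (-0.86 and -0.82, 18 genes), with differences of -0.17 and 0.06. Endothelial genes had 0.58 and 0.43 (22 genes), with a difference of 0.08. Matrix genes leaned toward the ductus without reaching the limit of 0.3, with a median difference of 0.25 over 41 genes, 9 higher and 2 lower past 1.5-fold, and 0.47 on chip C. Elastin, the main fibre of the aortic wall, had 25913 and 27373 in the ductus and 25859 and 29193 in the aorta (-0.10). Near-equal medians do not show that every member responded alike, and with 1 array per state small differences could not be seen.

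**Figure D5:**
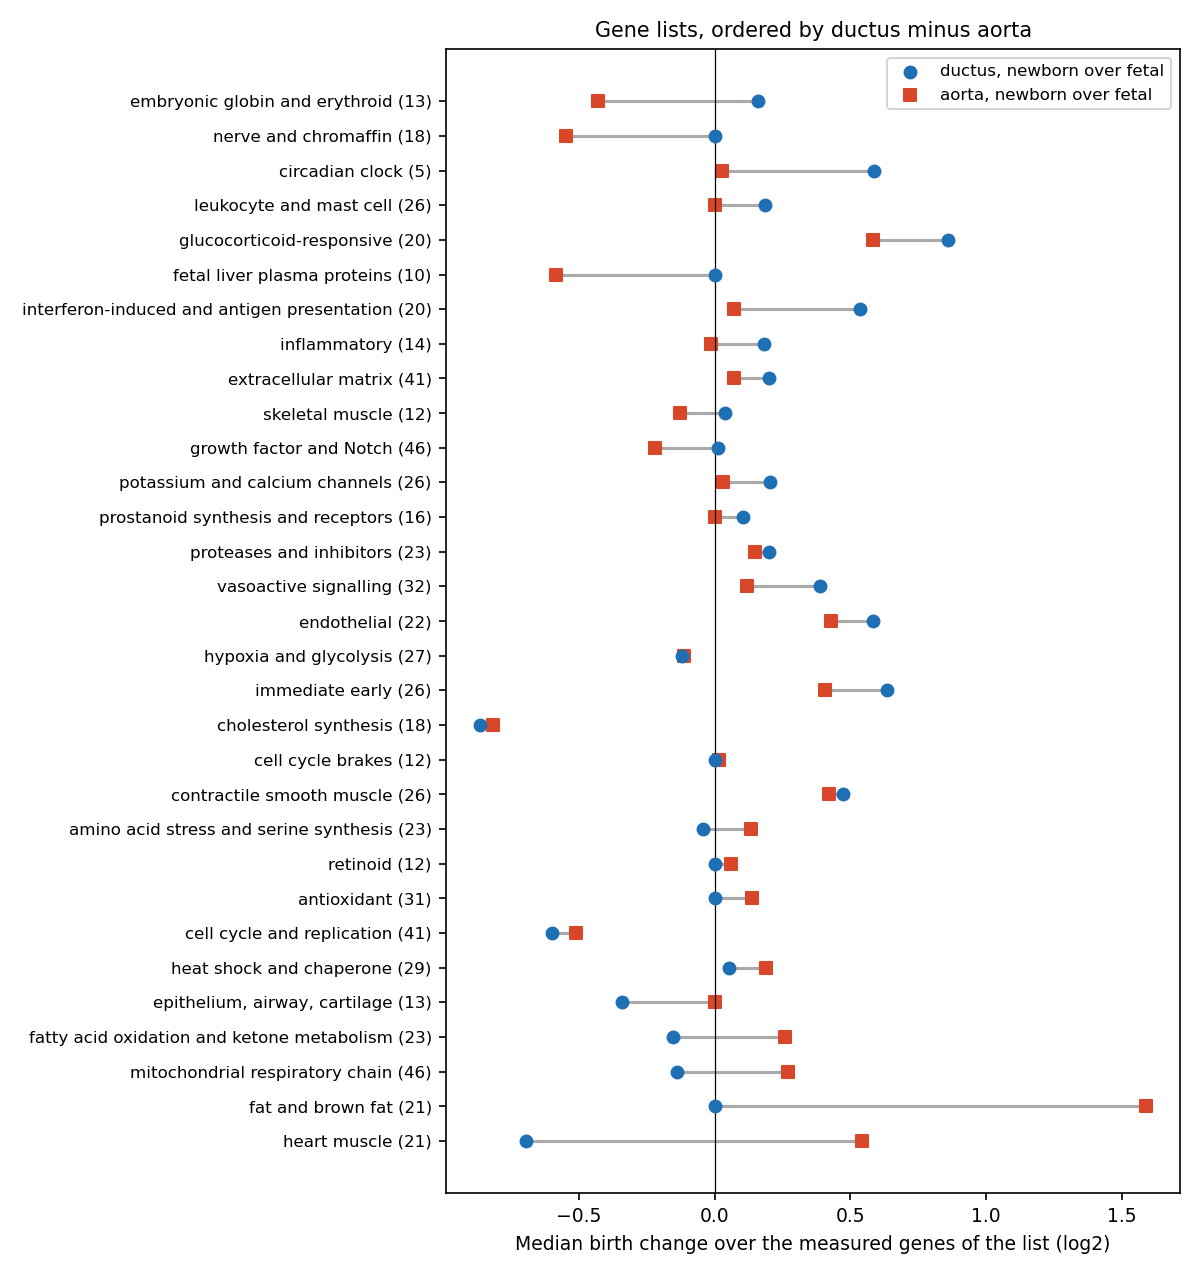
Median birth change (log2, newborn over fetal) over the measured genes of 31 lists in ductus (blue circles) and aorta (red squares), with the number of genes in brackets and lists ordered by the median vessel difference of their genes, which need not equal the gap between the points. Heart muscle and fat are the lowest rows, with the aorta to the right, while cell cycle and cholesterol synthesis lie left of 0, and contractile smooth muscle right of it, with both vessels close together.

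Control probe sets on all 3 chips give the scale of these values. Those for bacterial and phage sequences had median vessel differences of -0.56 on chip A, -0.21 on B and 0.00 on C, with a range of -1.47 to 0.84 over chips, while rat control transcripts had medians of 0.07, -0.01 and 0.00. Over probe sets, 393 (2.62%) were 2-fold apart toward the ductus and 351 (2.34%) toward the aorta, and of 11229 with all 4 signals above the floor 2.34% and 2.07% were. By class, 0.42% of probe sets rose and 0.447% fell in the ductus alone, 0.753% rose and 0.753% fell in the aorta alone, 0.273% rose in the ductus and fell in the aorta, and 0.24% did the reverse. Probe sets with all 4 signals above the floor and 2-fold apart toward the ductus had 100 partners of the same gene on another chip. Of these partners 75 had the same sign, and the median over all 100 was 0.29. Toward the aorta 61 of 78 did, and the median over all 78 was -0.31. Partners were counted per pair of probe sets. A gene with several such probe sets enters more than once, so the partners are not independent.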

How the data were processed

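Affymetrix chips A, B and C were hybridised with total RNA of each state. The deposited values are linear signal intensities, 1 per probe set, and their trimmed means lie within 500.3 to 500.9 on every array. Per the submitters' processing notes, MAS5 was used on chip A (4 of 5 arrays, without the fetal aorta). For chips B and C the software is not given in the sources used here.

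Here control probe sets were left out, each signal below the median of its chip, pooled over the 4 arrays, was set to that median, log2 was taken and the difference of differences formed. Of 26202 probe sets 18178 carried 1 gene, 391 several and 7633 none, and 18122 of the first were found by gene number in RefSeq GRCr8 (56 not, 0 symbols changed). No test was made, since no residual degree of freedom exists. A list was called shifted where its median differed from 0 by at least 0.3 (log2). Genes named had 1 gene per probe set. They were the 15 largest measured each way, up to 8 bounds each way, the 6 largest per class, 2 to 4 members per shifted list, and a set of ductus genes whatever they showed. The largest, the bounds and the class picks also had probe sets of 1 sign. On at least 1 of the 4 arrays their signal was at or above the 75th percentile of the chip. List members and ductus genes did not have to meet these 2 limits, and some have probe sets of mixed sign. Adipoq, Atp2a2, Ccn2, Cfd, Col11a1, Dbh, Hbe1, Kcnj11, Klf2, Klf9, Myl4, Nos2, Nppa, Phox2a, Pnoc, Reln, Tnni3, Vegfd and Zfp36 fall outside these picks. They were chosen after their values were seen. Promoters matched 82 of 108 named genes and 6578 of 7900 measured. The lists, classes and named sets were chosen with earlier results of these data known. Scripts were tested on simulated data. Python 3.11.15, pandas 2.3.3, numpy 2.4.6, matplotlib 3.10.9 and limma 3.58.1 in R 4.3.3 (cyclic loess) were used. Alternatives changed the floor (25th or 60th percentile, or none with 50 added), the normalization (quantile, cyclic loess, equal medians), the filter, the fold (1.5 or 3), the limit of the other vessel (1.3) and the averaging of probe sets.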

Additional observations from a re-analysis of the deposited data

Results flagged for a closer look

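Named genes whose signal moved in opposite directions in the 2 vessels are collected here. The difference was not tested, since each vessel and stage had 1 array per chip. Toward the ductus (ductus up, aorta down) the vessel differences on the log2 scale were 2.24 for Pdlim4, 2.10 for Ahsp, 1.93 for Hsd11b1 (a lower bound), 1.66 for Igfbp4, 1.66 for Vegfd, 1.51 for RT1-Da (a lower bound), 1.43 for Slc28a2 and 1.36 for Adipor2. Toward the aorta (ductus down, aorta up) they were -3.57 for Myl2, -3.45 for Chchd10, -2.69 for Smpx (a bound), -2.28 for Ccn1, -2.22 for Myh6, -2.13 for Msln, -2.12 for Psat1, -1.77 for Tnni3, -1.49 for Myl4 and -1.46 for Krt18. Every probe set above the floor of Igfbp4, Myl4 and Tnni3 showed opposite movement of at least 1.5-fold in each vessel. For Igfbp4 these lay on chip C alone and for Tnni3 on chip A alone. Those of Pdlim4, Vegfd, RT1-Da, Adipor2, Myl2, Chchd10, Smpx, Ccn1, Myh6, Psat1 and Krt18 did not all do so. Ahsp, Hsd11b1, Slc28a2 and Msln have 1 probe set above the floor, and the last 2 have another under it in all 4 states.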

How the results depend on the processing

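No paired analysis was possible because each state had 1 array per chip, and for the same reason no replicate could be left out. The number of probe sets called depended on the fold threshold and on the floor. Toward the ductus and toward the aorta it was 393 and 351, and 1367 and 1269 with the floor at the 25th percentile, 230 and 224 at the 60th, 1549 and 1395 at a 1.5-fold threshold and 54 and 93 at 3-fold. Toward the aorta it was 546 with no floor and 50 added, and 233 with all 4 arrays above the floor. Of the 744, 60.35% remained with the higher floor, 66.67% with all 4 arrays above it and 78.9% to 98.66% under the other settings that could remove a call. With no filter 100% remained, an outcome fixed in advance. A sign changed for 1 probe set (with the lower floor), and settings that alter only the filter cannot change a sign. For the classes in the order ductus alone up, ductus alone down, aorta alone up, aorta alone down, ductus up with aorta down, and ductus down with aorta up, the counts of probe sets were 63, 67, 113, 113, 41 and 36. With the lower floor they were 297, 306, 345, 381, 226 and 230. With the higher floor those that moved past 1.5 times were 38 (ductus alone up), 70 and 62 (aorta alone up and down) and 23 and 22 (opposite). With 50 added they were 103 and 125 (ductus alone up and down), 171 (aorta alone down) and 62 and 79 (opposite), and with all 4 arrays above the floor 38 (ductus alone up), 53 and 74 (aorta alone up and down). Quantile normalization, cyclic loess and equal medians moved no count past 1.5 times. Among the 12 shifted lists the median of epithelium, airway and cartilage turned to 0.061 with the lower floor and was -0.26 with the higher. Interferon and antigen genes came to 0.089 (higher floor), 0.297 (50 added), 0.25 (quantile), 0.29 (loess) and 0.24 (all 4 arrays), leukocyte genes to 0.23 (higher floor), glucocorticoid-responsive genes to 0.25 (averaged probe sets), and clock genes to 0.17 with the lower floor, with 2 arrays above the floor and with averaged probe sets. In the other 96 of 108 cases a shifted list stayed past 0.3 in its direction, heart muscle and fat in all. Among the values of named genes 283 stayed within 0.42 of those reported, 35 moved by more and 0 reversed. The cause was not tested.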
